A study of Mus musculus with 10 samples.

Results

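The genes described here are 10 genes of the endoplasmic reticulum (ER) stress response, chosen by symbol and found by their Ensembl identifiers among the 54752 genes of the files. A group of 6 encodes chaperones and folding enzymes of the ER: Hspa5, Hsp90b1, Calr, Pdia4, Pdia6 and Sdf2l1. The other 4 encode transcription factors: Xbp1, Ddit3, Atf4 and Atf5. All 10 passed the filter on low counts and were tested. Expression was followed in primary mouse embryonic fibroblasts (MEFs), connective tissue cells grown from E13.5 embryos, used at passage 2. The embryos came from Oct4-GFP transgenic fathers (CBA/CaJ × C57BL/6J) and 129S4/SvJaeJ mothers. The cells had been exposed for 48 hours to retroviruses carrying Jdp2, Sall4, Esrrb and Glis1, and were then kept in a medium named iCD3 for 0, 1, 3, 5 or 7 days (D0, D1, D3, D5 and D7). Every group, D0 included, carried the 4 viruses, so D0 is infected cells before the medium and no uninfected cells entered a comparison. Each day had 2 libraries, from 2 experiments that the series text calls independent, and a culture of such cells is a mixture in which infected and converting cells are not separated.

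Proteins that enter the ER are folded there by chaperones. Hspa5 (also called BiP) is the ER member of the Hsp70 family, Hsp90b1 (Grp94) is its Hsp90, calreticulin (Calr) binds glycoproteins and calcium, Pdia4 and Pdia6 are protein disulfide isomerases, and Sdf2l1 works with Hspa5 and its cochaperones. When unfolded proteins accumulate, the sensors Ire1 (Ern1), Perk (Eif2ak3) and Atf6 start the unfolded protein response. Ire1 splices the Xbp1 messenger RNA into the form that encodes an active factor, Atf6 is cut to release a factor that binds the ER stress response element, and Perk phosphorylates eIF2alpha, which favours translation of Atf4. Atf4 and its targets Ddit3 (CHOP) and Atf5 form the arm known as the integrated stress response, which also answers amino acid shortage, haem shortage and viral RNA. Fibroblasts secrete collagens and other matrix proteins, which fold in the ER. Splicing of Xbp1, translation of Atf4 and Atf5, and cutting of Atf6 are not seen in gene totals.

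The ER stress response element (ERSE) is the letters CCAAT and CCACG separated by 9 bases of any kind, and it is shown because Atf6 binds it and an exact match is rare among promoters. Promoters were RefSeq windows of 300 bases on GRCm38.p6, from 250 bases before the start of transcription, searched on both strands. At least 1 window was found for all 10 members, and Atf5 had 2. A member was counted if any of its windows matched, whereas the shares of all promoters count windows. Element and members were both chosen as parts of the ER stress response, so the counts below describe them and test no enrichment. The exact element stood in the windows of 4 of the 10, against 39 of 32851 promoters (0.119%). Its positions from the start were -65 to -47 in Hspa5, -212 to -194 and -107 to -89 in Hsp90b1, -162 to -144 in Calr and -98 to -80 in Pdia6. The matches in Calr and the second in Hsp90b1 lie on the opposite strand to the gene and are written as that strand reads, 5′ to 3′, with the fixed letters in capitals.
Hspa5, chr2:34772025-34772043, plus strand: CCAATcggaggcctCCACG
Hsp90b1, chr10:86705638-86705656, minus strand: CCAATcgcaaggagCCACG
Hsp90b1, chr10:86705533-86705551, plus strand: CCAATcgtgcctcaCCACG
Calr, chr8:84847075-84847093, plus strand: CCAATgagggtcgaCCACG
Pdia6, chr12:17266491-17266509, plus strand: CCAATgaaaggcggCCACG
With 1 of the fixed letters allowed to differ, a search chosen after the exact one, 6 of the 10 members and 494 of all promoters (1.5%) held the element. That search added Pdia4 and Ddit3, and another match in Hsp90b1.
Pdia4, chr6:47813602-47813620, plus strand: CCAATcacgggctgCCACT
Ddit3, chr10:127290702-127290720, minus strand: CCAATcagaaagcgGCACG
Hsp90b1, chr10:86705598-86705616, plus strand: CCAATcggaactgtCCAGG

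The whole windows of Hspa5, Hsp90b1 and Calr are printed because these 3 chaperones had the highest levels of the 10 members and an exact element. They read in the direction of the gene, with the fixed letters of each match in capitals. A match on the opposite strand therefore appears as CGTGG followed by ATTGG, and the match of Hsp90b1 with a different letter appears as CCTGG followed by ATTGG.
Hspa5, chr2:34771840-34772139, plus strand: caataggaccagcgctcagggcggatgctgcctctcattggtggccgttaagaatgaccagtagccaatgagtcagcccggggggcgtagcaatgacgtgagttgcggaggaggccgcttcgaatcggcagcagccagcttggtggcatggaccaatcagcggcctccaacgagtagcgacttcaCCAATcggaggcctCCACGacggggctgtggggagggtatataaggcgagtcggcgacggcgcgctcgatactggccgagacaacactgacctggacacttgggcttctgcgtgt
Hsp90b1, chr10:86705395-86705694, minus strand: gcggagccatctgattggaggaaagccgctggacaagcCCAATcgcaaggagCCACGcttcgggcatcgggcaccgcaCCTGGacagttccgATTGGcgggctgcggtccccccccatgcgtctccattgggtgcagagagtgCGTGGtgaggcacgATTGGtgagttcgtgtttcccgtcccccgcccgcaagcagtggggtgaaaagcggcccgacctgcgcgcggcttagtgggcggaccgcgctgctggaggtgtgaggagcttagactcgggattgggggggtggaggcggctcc
Calr, chr8:84846882-84847181, minus strand: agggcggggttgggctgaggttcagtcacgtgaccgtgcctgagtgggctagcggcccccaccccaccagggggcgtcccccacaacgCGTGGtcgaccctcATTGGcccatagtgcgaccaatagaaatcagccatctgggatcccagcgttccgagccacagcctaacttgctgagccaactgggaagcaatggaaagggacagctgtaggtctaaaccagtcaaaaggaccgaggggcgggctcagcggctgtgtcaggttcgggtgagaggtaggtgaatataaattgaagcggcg
The pentamer CCACG alone, which is also the end of the ERSE, was found for 8 of the 10 members and in 32.8% of all promoters. It is thus common. The core of the unfolded protein response element, TGACGTGG, was found for 0 of the 10 members and in 0.676% of promoters. The C/EBP-ATF element TGATGNAAT, bound by Atf4 and CHOP, was in 0 of the 10 and in 0.965% of promoters. These matches describe letters in a window and do not show binding.

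Depth differed between the experiments, with totals of 2176457 to 4335931 estimated counts for the libraries numbered 1 and of 1329377 to 1492105 for those numbered 2. The libraries of a replicate number deviated together from the day means, so a fit with the replicate number as a block was run beside the main one. The labels' cell type was checked first. At D0, 12 fibroblast markers summed to 10331 and 11025 CPM (counts scaled to the size of the library) in replicates 1 and 2. At D7 the sum was 587 and 882 CPM. Col1a1 (3933 and 5530 CPM) and Col1a2 (4055 and 3666) made up most of the D0 sum. In the main fit 8 of the 12 were lower at D7 (8.71% of genes tested), and Pdgfra, Twist1, Dcn and Lum did not pass. Each marker was above 0 in at least 1 library of every day, with Lum at 0 in D0 replicate 2 and D3 replicate 2. The summed level of 12 markers of pluripotent cells went from 25.9 and 27.7 CPM at D0, where Tdgf1, Dppa4, Fgf4 and Lin28a were at 0, to 2009 and 1565 CPM at D7. A lower level in such a culture can mean fewer cells that express a gene or less RNA in each, and bulk RNA cannot tell these apart.

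Of the 6 ER chaperones, 5 stood highest in the infected fibroblasts before the medium, with both D0 libraries above every later one. Hspa5 and Calr fell between D0 and D7 and Pdia4 fell between D0 and D3, while the highest levels of Sdf2l1 were at D7. Over all 10 members, 3 were lower at D7 than at D0 in edgeR's quasi-likelihood test with Benjamini-Hochberg adjustment over 12752 genes, against 8.71% of all genes tested (17.9% in either direction). At D3, 1 of the 10 was lower than at D0 (Pdia4), against 5.94% of genes (12.1% in either direction). At D1, 0 of the 10 passed the test, against 4.52% of genes (2.12% lower); all 10 changes from D0 to D1 were below 0, 4 had an unadjusted p under 0.05, and DESeq2 and limma also called 0. The median change of the 10 was -0.72 (log2) from D0 to D1, -0.62 from D0 to D3 and -0.73 from D0 to D7, where the median over all genes tested was 0.01, 0.02 and 0.06. These comparisons share the D0 libraries. Both D0 libraries lay above all 8 others for 6 of the 10 members (Hspa5, Hsp90b1, Calr, Pdia4, Pdia6 and Atf5), a pattern that 11.8% of the genes tested showed.

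**Figure D1:**
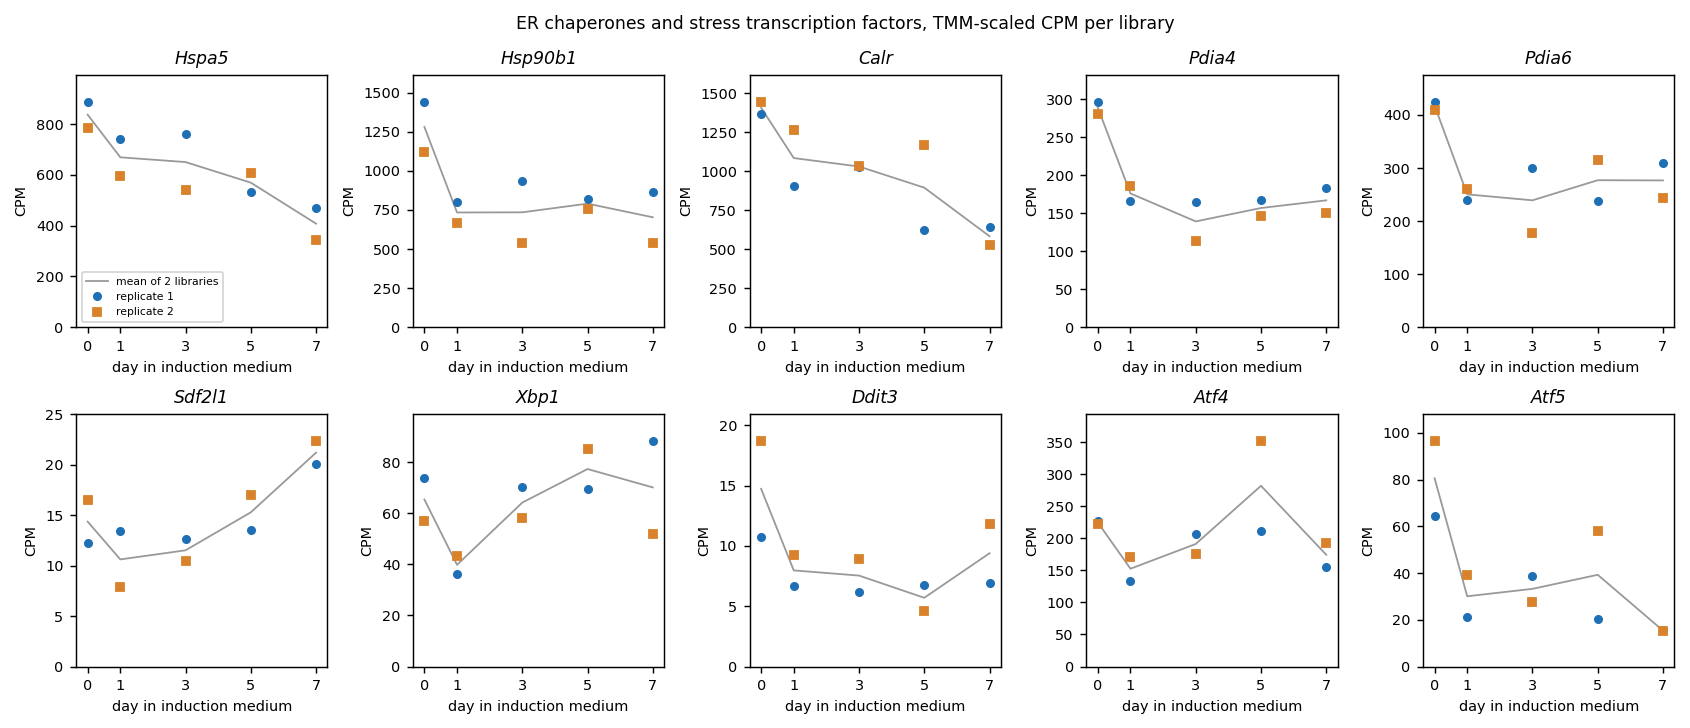
Level of each of the 10 genes in every library, in TMM-scaled CPM (linear axis from 0) against the day in induction medium. Circles are replicate 1, squares are replicate 2 and the line joins the means of the 2 libraries. For Hspa5, Hsp90b1, Calr, Pdia4, Pdia6 and Atf5 both D0 points lie above every later point, and Sdf2l1 has its highest points at D7 (20.01 and 22.3 CPM).

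Hspa5, the ER Hsp70, lies at chr2:34771970-34777547 (GRCm38). It was at 889 and 786 CPM at D0, 742 and 597 at D1, 761 and 540.2 at D3, 532 and 608 at D5 and 471 and 345 at D7 (replicates 1 and 2 throughout). Both D7 libraries were lower than all others, and the D1, D3 and D5 libraries overlapped one another. The change from D0 to D7 was -1.04 ± 0.30 (log2, SE), a 2.05-fold fall, with an adjusted p of 0.0351 in edgeR's test, and the level fell in both replicates. No other comparison of Hspa5 with a single day passed in that fit. The D7 call is lost without D0 replicate 1 (adjusted p 0.193), D1 replicate 1 (0.061), D7 replicate 1 (0.0984), D0 replicate 2 (0.123), D1 replicate 2 (0.0597) or D7 replicate 2 (0.26), and with upper-quartile scaling (0.0645).

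Calr, the lectin chaperone calreticulin, lies at chr8:84841850-84846934. It stood at 1369 and 1447 CPM at D0, 906 and 1265 at D1, 1027 and 1035 at D3, 622 and 1168 at D5 and 641 and 527 at D7. The D0 libraries were the 2 highest, the D3 libraries nearly coincided, and the D5 libraries were far apart, with D5 replicate 1 below D7 replicate 1. Calr fell 2.41-fold from D0 to D7 (log2 change -1.27 ± 0.34, SE, adjusted p 0.0256, edgeR). The change from D3 to D7 was -0.82 ± 0.34 and did not pass (adjusted p 0.172). The D7 call is lost without D0 replicate 1 (0.103), D7 replicate 1 (0.108), D0 replicate 2 (0.124) or D7 replicate 2 (0.164).

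Hsp90b1, the ER Hsp90, lies at chr10:86690209-86705509. Its levels were 1443 and 1119 CPM at D0, 798 and 669.5 at D1, 933 and 536 at D3, 823 and 758 at D5 and 866 and 541 at D7. Its D0 libraries were the 2 highest, and those of the 4 later days overlapped. The changes from D0 were -0.80 ± 0.35 at D1, -0.80 ± 0.35 at D3 and -0.86 ± 0.35 at D7 (log2, SE). None of these passed in the fit without a block (adjusted p 0.267, 0.175 and 0.115). With the replicate number as a block, the fall to D3 and to D7 passed (adjusted p 0.0249 and 0.0141) and that to D1 did not (0.0504). Hsp90b1 shares 415 exonic bases with 1810014B01Rik on the other strand, a pseudogene with 68 counts over all libraries.

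Pdia4 and Pdia6, the disulfide isomerases, also had both D0 libraries above all others. Pdia4 (chr6:47796141-47813430) was at 297 and 281 CPM at D0, 166 and 186 at D1, 165 and 113 at D3, 167 and 147 at D5 and 184 and 150.5 at D7. Its D0 libraries were close to each other, and the other 8 lay within 113 to 186 CPM. The change from D0 to D3 was -1.05 ± 0.28 (log2, SE), a 2.07-fold fall that passed in edgeR's test (adjusted p 0.0333). At D7 the change was -0.79 ± 0.28, which did not pass (adjusted p 0.0767) but did with the replicate block (0.0205). The D3 call is lost without D0 replicate 1 (0.185), D1 replicate 1 (0.0703), D3 replicate 1 (0.0594), D7 replicate 1 (0.0572), D0 replicate 2 (0.157), D1 replicate 2 (0.071), D3 replicate 2 (0.198) or D7 replicate 2 (0.0735). It is also lost with upper-quartile scaling (0.0517), no filter (0.0526) or thinned libraries (0.0784).

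Pdia6 (chr12:17266545-17284770) stood at 425 and 410.1 CPM at D0, 240.4 and 260.4 at D1, 300.2 and 178 at D3, 239 and 315 at D5 and 309 and 244 at D7. The libraries of the later days overlapped one another. The changes from D0 were -0.74 ± 0.31 at D1 (adjusted p 0.256), -0.80 ± 0.31 at D3 (0.132) and -0.59 ± 0.31 at D7 (0.231), and none passed in edgeR's test. With the replicate block the adjusted p at D3 was 0.0512.

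Sdf2l1 (chr16:17130138-17132383), the partner of Hspa5 and its cochaperones, was the least abundant of the 6 and was measured from 11 to 92 counts a library. It stood at 12.2 and 16.5 CPM at D0, 13.4 and 7.83 at D1, 12.6 and 10.4 at D3, 13.5 and 17.0 at D5 and 20.01 and 22.3 at D7. The 2 D7 libraries were the highest of the 10, and those of D0, D1 and D3 overlapped. The change from D0 to D7 was 0.57 ± 0.41 (log2, SE) with an adjusted p of 0.395, and that from D3 to D7 was 0.86 ± 0.41 (adjusted p 0.238). Neither passed the test.

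Among the transcription factors, Atf5 fell and Xbp1, Ddit3 and Atf4 did not pass the test in any comparison. Atf5 (chr7:44812256-44816658), a basic leucine zipper factor that Atf4 can induce, was at 64.6 and 96.5 CPM at D0, 21.0 and 39.1 at D1, 38.9 and 27.6 at D3, 20.5 and 58.0 at D5 and 15.7 and 15.1 at D7. The D7 libraries were the 2 lowest and nearly coincided, and the D0 libraries were the 2 highest. Atf5 fell 5.19-fold from D0 to D7 (log2 change -2.38 ± 0.51, SE, adjusted p 0.0089, edgeR), the largest change among the 10 in that comparison. It was also the one member with a change over the 5 days as a whole (adjusted p 0.0421), against 19.1% of the genes tested. That call is lost under 9 of 18 alternatives; with the replicate block, 5 members changed over the days (Hspa5, Hsp90b1, Calr, Pdia4 and Atf5; adjusted p 0.0067 to 0.0355), against 34.9% of genes.

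The early part of the Atf5 fall was less sure. From D0 to D1 the change was -1.45 ± 0.49 (log2, SE), with an adjusted p of 0.139 in edgeR's test and of 0.0319 with the replicate block. It also passed without a filter (0.0173) and without D5 replicate 1 (0.0379) or D5 replicate 2 (0.0404). From D0 to D3 it was -1.25 ± 0.48 (adjusted p 0.125), and it passed without D5 replicate 1 (0.0437), without D5 replicate 2 (0.0399) or without a filter (0.0328). The D7 call is lost without D7 replicate 1 (0.0776), D0 replicate 2 (0.0644) or D7 replicate 2 (0.0517). Atf5 shares 82 exonic bases with Nup62 on the other strand, which was at 101 and 164 CPM at D0 and 123 and 174 at D7 (log2 change 0.16, adjusted p 0.79). The sources used here do not say whether counting used strand.

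Atf4 (chr15:80255184-80257541), the central factor of the integrated stress response, stood at 228 and 222 CPM at D0, 134 and 171 at D1, 207 and 175 at D3, 212 and 352 at D5 and 155 and 193 at D7. The D1, D3 and D7 libraries and D5 replicate 1 lay below both D0 libraries, and D5 replicate 2 stood above all others. The changes from D0 were -0.56 ± 0.31 at D1 (log2, SE, adjusted p 0.418), -0.23 ± 0.31 at D3 (0.716) and -0.37 ± 0.31 at D7 (0.468). The D5 value rests on 1 of its 2 libraries.

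Xbp1 (chr11:5520659-5525893), whose messenger RNA is the substrate of Ire1, was at 73.9 and 56.9 CPM at D0, 36.2 and 43.4 at D1, 70.2 and 58.1 at D3, 69.6 and 85.1 at D5 and 88.3 and 51.9 at D7. The 2 D1 libraries were the lowest of the 10, and the other 4 days overlapped. The change from D0 to D1 was -0.73 ± 0.33 (log2, SE, adjusted p 0.302), that from D1 to D3 was 0.70 ± 0.33 (0.618) and that from D0 to D7 was 0.11 ± 0.33 (0.858). The sign at D7 rests on single libraries, since the change was -0.33 without D7 replicate 1 and -0.02 without D0 replicate 2. Gene totals do not separate spliced from unspliced Xbp1.

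Ddit3 (chr10:127290774-127296288), which encodes the proapoptotic factor CHOP, was the factor measured from the fewest reads, 6 to 32 counts a library. It stood at 10.8 and 18.7 CPM at D0, 6.69 and 9.25 at D1, 6.15 and 8.94 at D3, 6.76 and 4.64 at D5 and 6.96 and 11.8 at D7. The D0 libraries differed widely from each other; both lay above those of D1, D3 and D5, and D7 overlapped D0. The changes from D0 were -0.89 ± 0.55 at D1 (log2, SE, adjusted p 0.488), -0.98 ± 0.56 at D3 (0.306) and -0.67 ± 0.54 at D7 (0.448), and none passed. Ddit3 shares 68 exonic bases with Mars on the other strand (90.0 and 136 CPM at D0, 101 and 125 at D7).

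**Figure D2:**
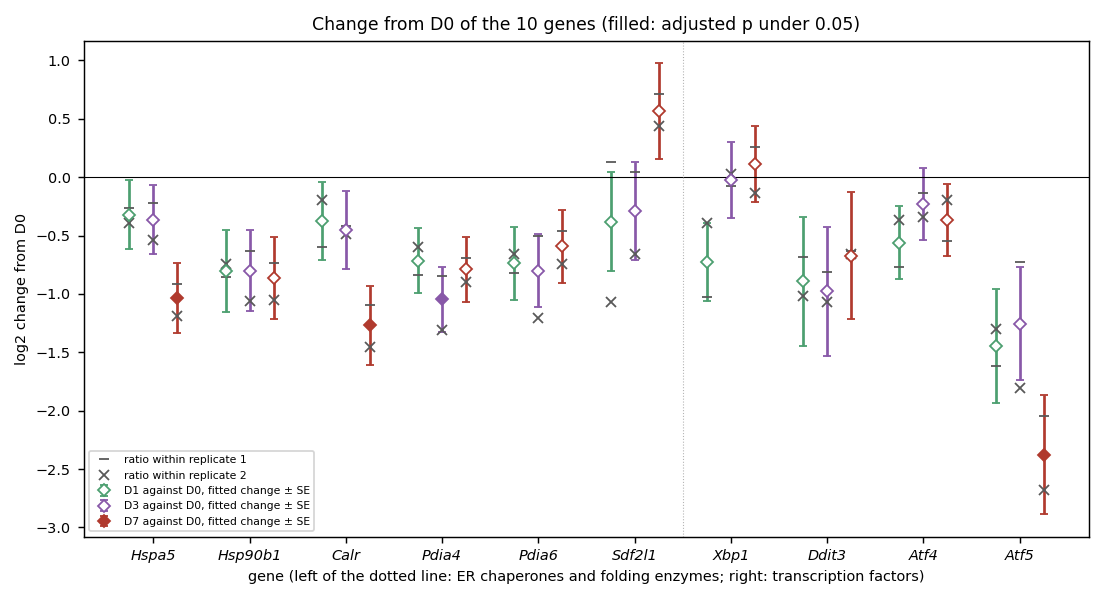
Fitted log2 change from D0 at D1, D3 and D7 for the 10 genes, with bars of ± 1 SE; filled diamonds passed at an adjusted p under 0.05. Dashes and crosses are the ratios of CPM to D0 within replicate 1 and replicate 2. The filled points are Hspa5 (-1.04), Calr (-1.27) and Atf5 (-2.38) at D7 and Pdia4 (-1.05) at D3.

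No member passed the test between neighbouring days once the cells were in the medium. Between neighbouring days after D1 (D3 against D1, D5 against D3 and D7 against D5), edgeR called 0 of the 10 members, against 0.0549%, 0.0706% and 0% of genes. At an unadjusted p under 0.05 these comparisons gave 0, 0 and 2 members, and DESeq2 and limma called 0 in each. From D3 to D7, 0 of the 10 passed against 5.37% of genes, with 3 members at an unadjusted p under 0.05 (Hspa5 at -0.67, Calr at -0.82 and Atf5 at -1.12, log2) and 0 called by DESeq2 or limma. With the replicate block, 1 member was lower at D1 (Atf5), against 5.32% of genes, 2 at D3 (Hsp90b1 and Pdia4) against 11%, and 5 at D7 (Hspa5, Hsp90b1, Calr, Pdia4 and Atf5) against 13.7%. Both D0 libraries lay above both D1 libraries for 9 members, all but Sdf2l1, as they did for 24.5% of genes tested, and above both D7 libraries for 7, as for 30.4%.

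Levels between genes were compared in the deposited TPM, which are per length. The 10 genes together took 0.325% ± 0.029 (SD, n = 2) of all TPM at D0, 0.218% ± 0.007 at D1, 0.217% ± 0.043 at D3, 0.203% ± 0.01 at D5 and 0.18% ± 0.034 at D7. Calr was the most abundant on every day, from 1223 and 1083 TPM at D0 to 573 and 419 at D7, and its libraries lay above those of the next gene on each day but D7, where they overlapped those of Hsp90b1. Hsp90b1 (785 and 590 TPM at D0) and Hspa5 (585 and 512) came next and overlapped each other on every day but D0. Pdia6 (305 and 291 at D0), Atf4 (209 and 200) and Pdia4 (191 and 177) formed the middle of the order. Xbp1, Atf5, Ddit3 and Sdf2l1 were the 4 lowest on every day. Atf5 was the highest of those at D0, at 56.3 and 86.2 TPM, where it overlapped Xbp1. At D7 it was at 14.4 and 21.1 TPM, overlapping Ddit3 and below Sdf2l1 at 31.4 and 34.9.

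Correlations of log2 CPM over the 10 libraries describe how the members moved together; the libraries share day and replicate effects. The closest pairs were Calr with Atf5 (Pearson r 0.91), Pdia4 with Pdia6 (0.88) and Hsp90b1 with Pdia4 (0.87) and Pdia6 (0.87), and the lowest was Calr with Sdf2l1 (-0.55). Outside the members, the 5 genes most like Hspa5 were Hoxd8 (0.96), Rexo2 (0.96), Sec62 (0.95), Caml (0.95) and Vmp1 (0.95). Sec62 is part of the protein channel of the ER, Caml acts in the insertion of tail-anchored proteins, and Vmp1 is a membrane protein of the ER. No ER role is given here for Hoxd8 and Rexo2, which ranked highest. Whether ER genes were unusually frequent among the 5 was not tested. The 5 most like Ddit3 were Zfhx3 (0.95), Bicc1 (0.94), Bahcc1 (0.94), Dip2a (0.94) and Smad4 (0.94). Ddit3 rested on 6 to 32 counts a library. Both sets of 5 were picked as the highest r among all genes tested outside the members, and these r were not tested.

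Some other genes of ER folding were lower at D7 as well. At D7 against D0, 8.71% of all genes tested were lower (17.9% called in either direction). Of 22 further ER chaperones and folding enzymes, all tested, 8 were lower and 0 higher at D7 than at D0 (median -0.64, log2). The 3 with the largest falls were Fkbp7, a peptidyl-prolyl isomerase, at -2.16 ± 0.56 (adjusted p 0.0222); Serpinh1, the collagen chaperone Hsp47, at -1.67 ± 0.40 (0.015); and Pdia5 at -1.43 ± 0.34 (0.014). Serpinh1 was at 1531 and 2173 CPM at D0 and 491 and 675 at D7, and Pdia5 at 61.6 and 84.6 CPM at D0 and 32.2 and 21.0 at D7. The other 5 were Dnajc3, Txndc5, Pdia3, Dnajb11 and Uggt1, between -1.37 and -0.87. Pdia5 was already lower at D1 (-1.54 ± 0.34, adjusted p 0.0278, edgeR), the 1 of the 22 that was, against 2.12% of genes.

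Calls in that list depended on single libraries. The count at D7 was 2 without D0 replicate 1, 5 without D1 replicate 1, 1 without D7 replicate 1, 2 without D0 replicate 2, 5 without D1 replicate 2 and 2 without D7 replicate 2. It was 4 with thinned libraries and 5 with limma. Fkbp7 is lost without D0 replicate 1 (adjusted p 0.261), D7 replicate 1 (0.0505) or D7 replicate 2 (0.13) and with thinned libraries (0.0655), Serpinh1 without D0 replicate 2 (0.114) or D7 replicate 1 (0.137), and Pdia5 without D0 replicate 2 (0.134) or D7 replicate 2 (0.127). Pdia5 at D1 is lost without D0 replicate 1 (0.0916), D1 replicate 1 (0.256), D0 replicate 2 (0.24) or D1 replicate 2 (0.105), and with limma (0.0594).

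The genes of ER-associated degradation, which return misfolded proteins to the cytosol, mostly did not pass the test. Of 16 listed, 15 were tested and 3 were lower at D7 than at D0, against 8.71% of genes (17.9% in either direction). At an unadjusted p under 0.05 there were 8, and the list median was -0.66. Among the 3 were Ube2j1 (-1.91 ± 0.33, adjusted p 0.003, edgeR) and Sel1l (-0.87 ± 0.27, 0.046). With the replicate block, 8 passed, 7 lower and 1 higher, where 3629 of 12752 genes were called. At D1, 0 of the 15 passed in edgeR's test, with 0 at an unadjusted p under 0.05 and 0 in DESeq2 or limma. The 16 genes of ER entry and signal peptide cleavage had a median of -0.43 at D7; 0 passed, 3 were at an unadjusted p under 0.05, DESeq2 called 1, limma 0 and the block fit 3. Ube2j1 is lost without D7 replicate 1 (0.052). Sel1l is lost without any library but D5 replicate 1 and D5 replicate 2 (0.0611 to 0.233), and with limma (0.0881), no filter (0.132), a minimum count of 30 (0.0509) or upper-quartile scaling (0.0791).

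Among 17 sensors and regulators of the unfolded protein response, 3 were lower at D7 than at D0, beside 17.9% of all genes called (8.71% lower). The count is thus no result about the list. With the replicate block 5 passed, where 3629 of 12752 genes were called. The 3 belong to the Creb3 family of membrane-bound factors: Creb3l1 (-2.48 ± 0.33, adjusted p 0.00077, edgeR), Creb3 (-2.16 ± 0.44, 0.0068) and Creb3l2 (-1.15 ± 0.29, 0.0187). Creb3l1, a factor known for its part in collagen secretion, was at 80.7 and 92.8 CPM at D0, 54.2 and 80.4 at D1 and 13.8 and 15.6 at D3. Its fall to D3 was -2.57 ± 0.34 (adjusted p 0.00094), and both its calls hold without each library. The 3 stress sensors did not pass in any of these comparisons. Ern1 changed by -0.28 from D0 to D7 (adjusted p 0.729), Atf6 by -0.50 (0.348) and Eif2ak3 by 0.37 (0.607). Creb3 is lost without D7 replicate 1 (0.0688), and Creb3l2 without D0 replicate 1 (0.0698), D7 replicate 1 (0.135), D0 replicate 2 (0.15) or D7 replicate 2 (0.113), and with limma (0.0853).

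**Figure D3:**
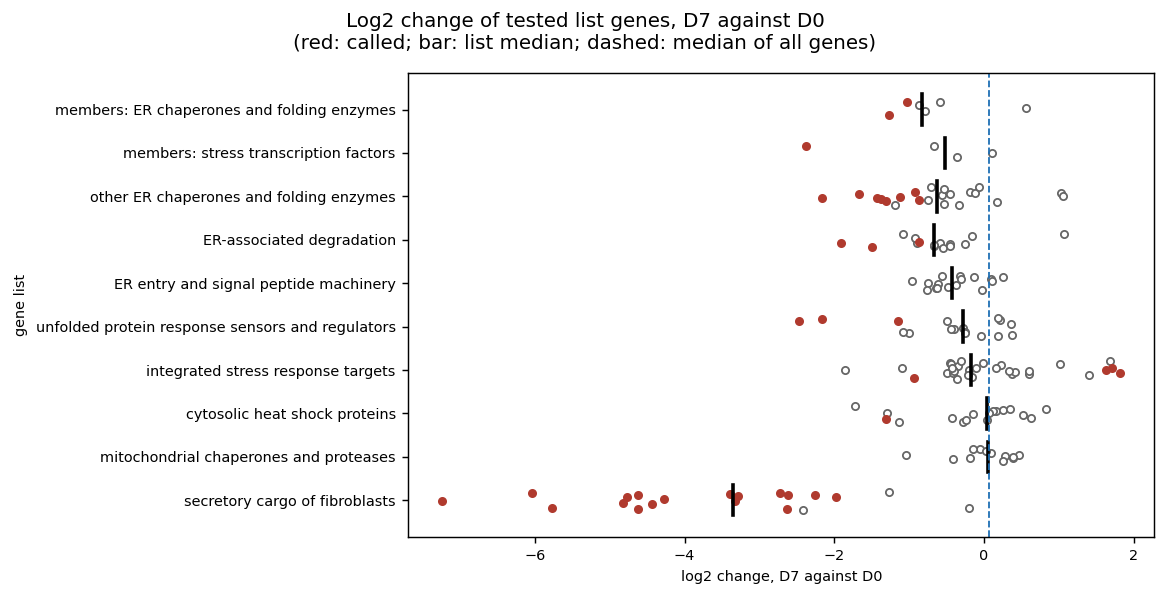
Log2 change from D0 to D7 of every tested gene in 10 gene lists, 1 circle per gene; red circles passed at an adjusted p under 0.05, the black bar is the list median and the dashed line is the median over all genes tested (0.06). The medians of the member lists and of the lists of ER folding, degradation and entry lie between -0.83 and -0.43. Those of unfolded protein response sensors and regulators (-0.28) and integrated stress response targets (-0.18) lie nearer the dashed line. Medians of cytosolic heat shock proteins (0.03) and mitochondrial chaperones (0.06) lie close to it, and that of secreted fibroblast proteins is -3.36.

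Chaperones outside the ER had medians close to that of all genes. Of 17 cytosolic heat shock proteins and their helpers, 1 was lower at D7 than at D0, against 8.71% of genes. The list median was 0.03, and the 1 was the Hsp70 cochaperone Bag3 (-1.31 ± 0.39, adjusted p 0.042, edgeR). That call is lost without D0 replicate 1 (0.0638), D3 replicate 1 (0.0591), D7 replicate 1 (0.185), D0 replicate 2 (0.297), D3 replicate 2 (0.0519) or D7 replicate 2 (0.17), and with limma (0.0624), thinned libraries (0.0607) or upper-quartile scaling (0.0541). Of 12 mitochondrial chaperones and proteases, 0 passed, against 17.9% of genes in either direction. There was 1 at an unadjusted p under 0.05, with a median of 0.06, 0 calls by DESeq2 and 1 by limma. No test of the difference between lists was made.

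The proteins that fibroblasts send through the ER had the lowest median at D7 of the 10 lists plotted. Over all genes tested, 2.12% were lower at D1 than at D0 and 8.71% were lower at D7. Of 20 secreted fibroblast proteins, mainly collagens and other matrix proteins, 12 were lower at D1 and 17 at D7 (medians -1.92 and -3.36). Their summed level was 33833 and 38014 CPM at D0, 8106 and 10896 at D1, 3498 and 5362 at D3, 2788 and 3843 at D5 and 2994 and 4213 at D7. The fibroblast marker list shares collagen chains with this list. The count at D1 was 7 without D0 replicate 1, 5 without D1 replicate 1, 7 without D0 replicate 2 and 8 without D1 replicate 2. The summed fibroblast markers and 5 of the 6 member chaperones, all but Sdf2l1, thus had their highest values at D0, and the part of the cell mixture in the members' course was not tested. Summed markers of endothelial cells (20.5 and 26.2 CPM at D0, 132 and 141 at D7; Cldn5 at 0 at D0), secretory endoderm (19.6 and 24.7, 89.6 and 72.9; Sox17, Afp, Apoa1 and Ttr at 0 at D0) and macrophages (30.3 and 19.5, 12.4 and 8.54; Aif1 at 0 at D0) were far below those of fibroblasts at D0. At D7 each gene of these 3 lists was above 0 in at least 1 library. Of the macrophage markers, Adgre1, Ptprc, Tyrobp, Aif1 and Cd14 were at 0 in D7 replicate 2. In D7 replicate 1 these were at 0.65 CPM or less. Summed markers of skeletal muscle (245 and 348 CPM at D0, 28.6 and 74.0 at D1, 35.2 and 37.5 at D7; Myf5 at 0 at D0, Myod1 and Myog at 0 at D7) and of neural cells (220.2 and 276 at D0, 79.1 and 108 at D1, 140.1 and 134 at D7; Dcx at 0 at D0) were also higher at D0 than on these later days, and their part in the members' course was not tested.

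Few targets of the integrated stress response passed the test against D0. Of 32 tested, 2 were higher and 0 lower at D1 than at D0, 2 were higher and 2 lower at D3, and 3 were higher and 1 lower at D7, with list medians of -0.42, -0.69 and -0.18 (log2). These counts of 2, 4 and 4 stand beside 4.52%, 12.1% and 17.9% of all genes called, so they are no result about the list. With the replicate block, 3 were higher and 5 lower at D1, 4 and 5 at D3, and 6 and 3 at D7; DESeq2 gave 2 and 2 at D1. Slc1a5, a glutamine transporter, was at 39.1 and 31.4 CPM at D0 and 249 and 247 at D1, a change of 2.80 ± 0.37 (adjusted p 0.0025) that held without each library. At D7 it was at 122 and 129 CPM (1.82 ± 0.36, adjusted p 0.0061; 0.0618 without D0 replicate 2). Gadd45a, a DNA damage and growth arrest gene, was at 8.81 and 15.0 CPM at D0, 37.1 and 53.4 at D1 (1.94 ± 0.41, adjusted p 0.0224) and 41.5 and 34.2 at D7 (1.71 ± 0.41, 0.0153). Its call at D1 is lost without D0 replicate 1 (0.211), D1 replicate 1 (0.0575), D0 replicate 2 (0.0772) or D1 replicate 2 (0.11), and that at D7 without D0 replicate 1 (0.136) or D7 replicate 1 (0.105). Both genes are also known to answer other signals.

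Asns, the asparagine synthetase that Atf4 induces, was low at D1 and D3 and high at D7. It stood at 72.9 and 86.1 CPM at D0, 36.5 and 36.3 at D1, 57.4 and 29.8 at D3, 206 and 150 at D5 and 244 and 249 at D7. The D1 and D3 libraries lay below both D0 libraries, and the D5 and D7 libraries above them. It rose from D0 to D7 by 1.63 ± 0.33 (log2, SE, adjusted p 0.0069; 0.0717 without D0 replicate 1). From D3 to D7 it rose by 2.47 ± 0.34 (adjusted p 0.0098), a call lost without D7 replicate 1 (0.0835) or D3 replicate 2 (0.0947). Tnfrsf10b, a death receptor that CHOP induces, was the 1 lower at D7 (-0.93 ± 0.29, adjusted p 0.0489), a call lost without any library but D5 replicate 1 and D5 replicate 2 (0.0579 to 0.362). It is also lost with each of the other scalings, filters and tools and with thinned libraries (0.0532 to 0.188), and passes with the replicate block (0.0169).

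Between D3 and D7, 4 of the 32 targets were higher and 0 lower, against 3.07% and 2.31% of genes. With the replicate block, 7 were higher and 4 lower, where 2351 of 12752 genes were called. Beside Asns these were Pycr1 (3.40 ± 0.64, adjusted p 0.0191) and Aldh18a1 (1.48 ± 0.27, 0.0181), enzymes of proline synthesis, and the lipoprotein receptor Vldlr (1.94 ± 0.39, 0.0238); these 3, and Trib3, were named after their values were seen. Pycr1 was at 6.85 and 6.74 CPM at D0, 0.61 and 1.42 at D1, 2.34 and 1.49 at D3, 10.9 and 10.8 at D5 and 13.7 and 30.9 at D7. Each of these 3 calls is lost without D3 replicate 1, D7 replicate 1, D3 replicate 2 or D7 replicate 2 (adjusted p 0.0734 to 0.152), and with limma those of Aldh18a1 (0.0806) and Vldlr (0.0789) are lost. Trib3, a pseudokinase induced by CHOP and Atf4, showed 10.3 and 10.5 CPM at D0, 0 and 2.13 at D1, 2.34 and 2.24 at D3, 12.8 and 14.7 at D5 and 7.40 and 13.8 at D7. Its change from D0 to D1 did not pass (adjusted p 0.0655) but did with the replicate block (0.0162).

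**Figure D4:**
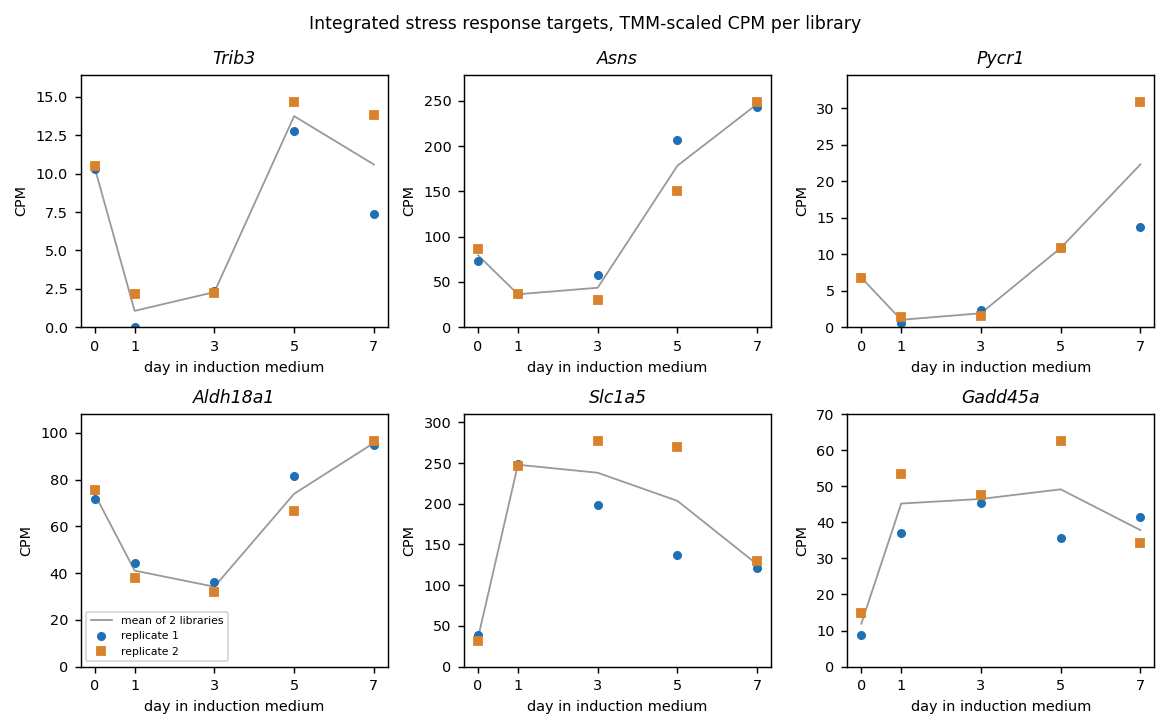
Level of 6 integrated stress response targets in every library, in TMM-scaled CPM (linear axis from 0) against the day in induction medium. Circles are replicate 1, squares are replicate 2 and the line joins the means. Trib3, Asns, Pycr1 and Aldh18a1 are low at D1 and D3 and higher at D5 and D7, whereas Slc1a5 is high from D1 (249 and 247 CPM against 39.1 and 31.4 at D0).

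At D7 against D3, 3.07% of all genes tested were higher. Among the ER chaperones outside the members, Ero1l, the oxidase that recharges the disulfide isomerases, was the 1 higher at D7 than at D3. It was at 101 and 85.3 CPM at D0, 87.3 and 84.0 at D1, 41.8 and 45.5 at D3, 88.7 and 46.4 at D5 and 240 and 147 at D7, and it too was named after its values were seen. The change from D3 to D7 was 2.16 ± 0.36 (adjusted p 0.0152), and it is lost without D3 replicate 1 (0.0784), D7 replicate 1 (0.134) or D3 replicate 2 (0.119). The isomerases among the members had changes that did not pass over the same days; Pdia4 and Pdia6 differed by 0.26 ± 0.28 (adjusted p 0.63) and 0.21 ± 0.31 (0.743).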

How the data were processed

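Messenger RNA of 10 libraries (5 days, 2 libraries each) had been sequenced on a NextSeq instrument. Per the submitters' processing notes, the tools were bcl2fastq, Bowtie2 and RSEM, and the build was mm10; the sources used here give no versions, annotation release or strand setting. Per the file headers, each deposited file is an RSEM gene table with lengths, expected counts (estimates that need not be whole, not normalised), TPM and FPKM. The labels list 2 library kits and do not assign them to libraries. From the deposited effective lengths, fragments were on average 136 to 158 bases long in libraries numbered 1 and 199 to 204 in those numbered 2, and mitochondrial messenger RNA took 2.17% to 5.36% of the counts. No 2 libraries of a day agreed within counting noise (7.75 to 23.0 in chi-square per gene), and none was counted as a repeat.

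Identifiers were named through GENCODE M21 on GRCm38 (54723 of 54752 matched). The 29 unnamed took 0.0006% to 0.0018% of counts, kept their identifiers as names and were not removed before the filter. The deposited expected counts were rounded and given to edgeR 4.0.16 in R 4.3.3 (quasi-likelihood F test, TMM scaling, minimum count 10, 1 term per day, all 10 libraries in the same model with a common estimate of spread), adjusted over 12752 genes, with calls at an adjusted p under 0.05. The SE was computed as the size of the log2 change over the root of F. CPM are TMM-scaled. The deposited TPM gave levels between genes and, as log2(TPM + 1), an alternative with limma 3.58.1; the deposited FPKM were an alternative for levels. Other alternatives were DESeq2 1.42.0, other scalings and filters, thinning, each library left out, and the replicate number as a block. Same-numbered libraries deviated together over 10 pairs of days (r 0.27 to 0.44), so the numbers, which the series text ties to 2 experiments, were taken to pair the samples. Nothing more says which cultures the libraries came from, so p-values cover only their spread, which may be technical. The fit without a block was also run on simulated counts drawn without a replicate effect, so that run does not cover the pairing.

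The 10 members and the gene lists were chosen with earlier results of these data known. Named were all members, the up to 3 list genes with the largest change each way among those called at D1 or D7 against D0, and the 5 genes most like Hspa5 and Ddit3; others are marked where named, and 1 list gene is not reported here. Motifs were searched in RefSeq promoter windows (GRCm38.p6).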

Additional observations from a re-analysis of the deposited data

How the results depend on the processing

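Of 716 recomputed member results, 665 kept direction and side of the threshold, 25 no longer passed, 10 passed anew and 16 changed sign; of 718 for list genes, 571 kept both and 147 no longer passed. The cause of these shifts was not tested, beyond the fewer samples or genes in some settings. Ddit3 was not tested at a minimum count of 30. The summed share of the 10 genes stayed within 1 SD in FPKM and in CPM per length. These measures rest on the same counts and lengths as TPM, so their shares had to agree and this is no check. Upper-quartile scaling moved the median of all genes at D7 against D0 from 0.06 to 0.19 (log2), with 1382 higher and 948 lower, against 1167 and 1111.

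With the replicate block, the genes called were 1350 (D1 against D0), 2742 (D3 against D0), 206 (D3 against D1), 421 (D5 against D3), 3629 (D7 against D0), 2351 (D7 against D3), 20 (D7 against D5) and 4455 (any day), where the fit without it called 577, 1549, 7, 9, 2278, 685, 0 and 2436. Members called were then 1 at D1, 2 at D3, 5 at D7 and 5 on any day, in place of 0, 1, 3 and 1, and the block changed no other call of a member. In the lists it gave 3 other ER chaperones at D1, 8 degradation genes, 3 ER entry genes and 5 sensors at D7, 8 and 9 integrated stress response targets at D1 and D7, 1 and 4 cytosolic, and 1 and 1 mitochondrial chaperones.

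With no filter, the counts were 1064 (D1 against D0), 272, 452 and 176 for the later steps, 1664 (D7 against D3) and 4139 (any day), with 1 member at D1, 2 other ER chaperones and 4 integrated stress response targets at D1, and 3 cytosolic chaperones at D7. DESeq2 gave 128, 151 and 30 genes for the later steps, 3 members on any day, 2 other ER chaperones, 4 integrated stress response targets and 1 cytosolic chaperone at D1, and 1 ER entry gene at D7. Limma gave 17 genes (D5 against D3), 435 (D7 against D3) and 1 (D7 against D5), 0 members on any day, and at D7 5 other ER chaperones, 0 cytosolic and 1 mitochondrial. A minimum count of 30 gave 11 genes (D3 against D1) and 2 other ER chaperones at D1. Thinned libraries gave 11 genes (D3 against D1), 0 members at D3, and at D7 4 other ER chaperones, 0 cytosolic and 1 mitochondrial. Upper-quartile scaling gave 15 genes (D3 against D1), 0 members at D3 and on any day, 2 other ER chaperones at D1 and 0 cytosolic at D7.

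Leaving out each library gave 121 to 911 genes (D1 against D0), 589 to 2102 (D3 against D0), 0 to 45, 0 to 288 and 0 to 227 (later steps), 839 to 2988 (D7 against D0), 5 to 1532 (D7 against D3) and 1235 to 3514 (any day). Members called were 0 to 1 at D1, 0 to 2 at D3, 0 to 3 at D7 and 0 to 2 on any day; at D7 they were 0 without D7 replicate 1, D0 replicate 2 or D7 replicate 2, and 1 without D0 replicate 1. At D1 and D7, list counts were 0 to 2 and 1 to 10 (other ER chaperones), 0 and 0 to 7 (degradation), 0 and 0 to 1 (ER entry), 0 and 1 to 4 (sensors), 1 to 2 and 1 to 7 (integrated stress response), 0 to 1 and 0 to 1 (cytosolic), 0 and 0 to 1 (mitochondrial) and 5 to 15 and 16 to 18 (secreted proteins).

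Signs that changed belonged to small changes that did not pass. For D7 against D3 without a library, the ranges (log2) were -0.44 to 0.39 for Hsp90b1 (0.076 with limma), -0.13 to 0.64 for Pdia6, -0.31 to 0.45 for Xbp1, -0.089 to 0.68 for Ddit3 and -0.31 to 0.017 for Atf4. For Xbp1 they were -0.15 to 0.23 at D3 (0.057 with upper-quartile scaling) and -0.33 to 0.47 at D7, against D0. Ddit3 was measured from 6 to 32 counts a library and Sdf2l1 from 11 to 92, which limits their precision.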
